A study of Mus musculus with 8 samples.

Results

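Keratins are the intermediate filament proteins of epithelial cells, and the 5 genes described here are Krt7, Krt8, Krt17, Krt18 and Krt19. They were given as a list of symbols, and all 5 were found among the 18193 genes that a probe set with a single gene symbol measured, through 8 of 34945 such probe sets. The list was chosen by measured values of these arrays, with results of all 3 groups known, and which comparison was used is not recorded. Differences that involve the inhibitor-treated arrays, where these genes stood above DMSO, are given as a description without a test. Between released and DMSO cells p-values are printed, but they are not independent of that choice and support nothing beyond the values. RNA came from mouse embryonic stem cells (ESCs) kept without feeders or serum in 2i medium, which contains leukaemia inhibitory factor, the MEK inhibitor PD0325901 at 1 μM and the GSK3 inhibitor CHIR99021 at 3 μM in all groups. The MYCi group (2 arrays) received 10058-F4, a small molecule that hinders the pairing of MYC with MAX, at 64 μM for 60 h. The Resc group (3 arrays) had the same 60 h of treatment and then 48 h in 2i medium without the compound, and will be called released cells. The DMSO group (3 arrays) received the solvent alone for 60 h. No line name, genotype or separate culture per array is given in the labels. Each p-value thus sets a group difference only against the scatter among these arrays, and that scatter may be technical. MYCi and DMSO cells were collected after 60 h and released cells 48 h later, so that time since the start of treatment and withdrawal cannot be told apart.

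Keratin filaments form only from pairs, a type II chain with a type I chain. Krt8 and Krt7 encode type II chains and Krt18, Krt19 and Krt17 type I chains. Krt8 and Krt18 are the first keratins of the mouse embryo, where they mark the trophectoderm, and they persist as the main pair of simple, one-layered epithelia. Krt7 and Krt19 accompany them in ducts and glands, and Krt17 is a keratin of skin appendages that wounded or stressed epidermis switches on. Naive ESCs in 2i medium correspond to the inner cell mass, which is not an epithelium of this kind.

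With the inhibitor all 5 genes were higher than in DMSO, and after its withdrawal they parted into 3 patterns. Krt8 and Krt19 stood within 0.12 (log2) of DMSO in released cells, Krt18 remained 3-fold above DMSO, and Krt7 and Krt17 lay 2.31-fold and 2.34-fold below it. In the MYCi arrays 5 of 5 keratins lay above every DMSO array, as 25.5% of all genes did, and in released cells 5 of 5 lay below every MYCi array, against 25.7% of all genes. At least 8-fold above DMSO stood 3 of the 5, against 0.115% of all genes. The choice of genes fixes or bears on these counts, so nothing is read from them. Between released and DMSO arrays, 3 of the 5 passed the test, 1 upward and 2 downward, where 8.66% of all genes were called, 4.66% upward and 4.01% downward. The same 3 genes did not overlap with DMSO, 1 above and 2 below it, as 14.6% and 14% of all genes did. Because results of all 3 groups were known when the genes were chosen, nothing about the genes as a group is read from these counts either. Values are log2 expression values from robust multi-array averaging (RMA), differences are given ± moderated standard error, and the test is limma's with Benjamini-Hochberg adjustment over all 18193 genes and a threshold of 0.05.

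**Figure D1:**
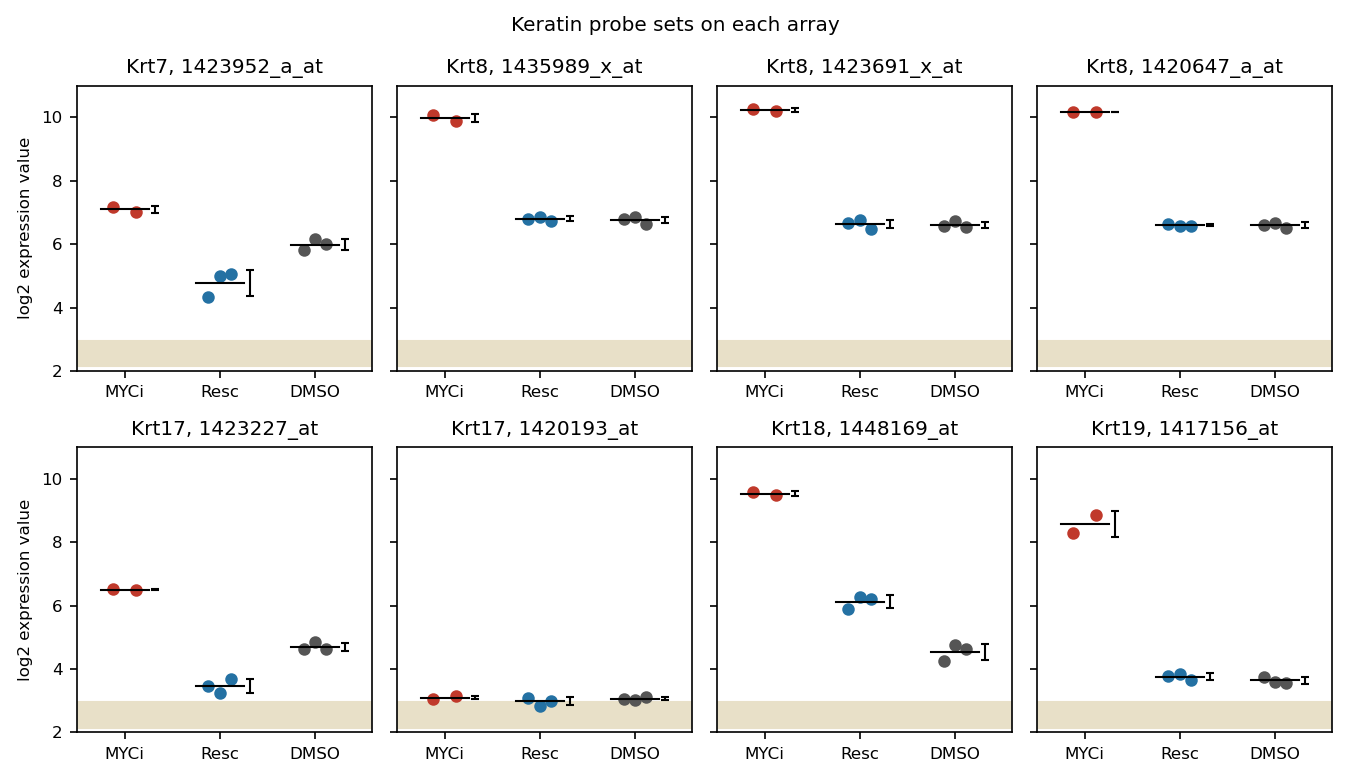
Log2 expression value (vertical axis) of each probe set of the 5 keratins on the MYCi, Resc and DMSO arrays; points are arrays, horizontal lines group means and bars ± SD (n = 2, 3 and 3), and the shaded band is the range of the bacterial Trpn control probe sets (2.15 to 2.95). Krt18 on the Resc arrays lies above DMSO, Krt7 and the Krt17 probe set 1423227_at lie below it, and Krt8 and Krt19 overlap with it.

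Krt8, the main type II chain of simple epithelia, was measured by 3 probe sets that behaved alike. The brightest of them, 1435989_x_at, read 10.09 and 9.90 on the MYCi arrays, 6.81, 6.87 and 6.72 on the Resc arrays and 6.78, 6.85 and 6.64 on the DMSO arrays. Both MYCi arrays stood far above the rest, and released and DMSO arrays overlapped. Its level lay at percentile 95.9 of all probe sets in MYCi and 74.2 in DMSO, so Krt8 was already well above the dimmest probe sets in the solvent control. The difference between MYCi and DMSO was 3.24 ± 0.086, or 9.43-fold, and between Resc and MYCi -3.19 ± 0.086. Between Resc and DMSO it was 0.04 ± 0.077 (limma adjusted p = 0.796), with a 95% interval from -0.13 to 0.22. The other probe sets of Krt8 gave 3.62 and 3.58 between MYCi and DMSO, and 0.03 and 0.00 between Resc and DMSO. Names ending in _x_at and _a_at mark probes that can match more than 1 sequence or transcript, and which copies contributed was not tested.

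Krt18, the type I chain that pairs with keratin 8, had 1 probe set. It read 9.59 and 9.49 on the MYCi arrays, 5.90, 6.28 and 6.20 on the Resc arrays and 4.26, 4.75 and 4.62 on the DMSO arrays. The 3 groups formed 3 separate steps without overlap, with released cells in the middle. MYCi exceeded DMSO by 5.0 ± 0.15, or 31.9-fold, rank 2 of 18193 genes. Released cells lay 3.41 ± 0.15 below MYCi, and still 1.59 ± 0.13 above DMSO (limma adjusted p = 0.000116; 95% interval 1.29 to 1.88). Measured on the log2 scale, 31.8% of the difference between MYCi and DMSO was left in released cells, compared with 1.3% for Krt8 and 2.48% for Krt19.

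Krt19, a type I keratin that lacks most of the tail domain and pairs with keratin 8 or 7, was measured by 1 probe set as well. It read 8.29 and 8.87 on the MYCi arrays, 3.78, 3.85 and 3.65 on the Resc arrays and 3.75, 3.59 and 3.57 on the DMSO arrays. The MYCi arrays differed from each other more than for the other 4 genes, and released and DMSO arrays overlapped. MYCi exceeded DMSO by 4.94 ± 0.15 (30.7-fold), rank 3, and released cells lay 4.82 ± 0.15 below MYCi. Between Resc and DMSO the difference was 0.12 ± 0.13 (limma adjusted p = 0.635; 95% interval -0.17 to 0.42). Its DMSO level was close to the 2.15 to 2.95 of the bacterial control probe sets, where array values compress a fold change.

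Krt7, the second type II chain of simple and ductal epithelia, read 7.18 and 7.01 on the MYCi arrays, 4.32, 4.99 and 5.06 on the Resc arrays and 5.81, 6.17 and 6.01 on the DMSO arrays. Here the released arrays were the lowest of the 3 groups, and none of the groups overlapped. MYCi exceeded DMSO by 1.10 ± 0.20 (2.15-fold), and released cells lay 2.31 ± 0.20 below MYCi. Against DMSO, Krt7 fell by 1.21 on the log2 scale with a standard error of 0.18 (limma adjusted p = 0.00293; 95% interval -1.60 to -0.81). Released replicate 1 was the lowest array, and leaving it out kept the call, as did the other 15 alternatives (differences between -1.34 and -0.97; limma adjusted p at most 0.015).

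Krt17, the stress-inducible type I keratin, followed the course of Krt7 in 1 of its 2 probe sets. Probe set 1423227_at read 6.52 and 6.49 on the MYCi arrays, 3.48, 3.25 and 3.70 on the Resc arrays and 4.63, 4.84 and 4.64 on the DMSO arrays. Released arrays were again lowest and the groups did not overlap. MYCi exceeded DMSO by 1.81 ± 0.12 (3.50-fold), released cells lay 3.03 ± 0.12 below MYCi, and they fell below DMSO by 1.23 on the log2 scale with a standard error of 0.11 (limma adjusted p = 0.000158; 95% interval -1.47 to -0.99). The other probe set, 1420193_at, stayed between 2.84 and 3.14 on all 8 arrays, near the level of the bacterial controls, with 0.03 ± 0.087 between MYCi and DMSO and -0.09 ± 0.078 between Resc and DMSO (limma adjusted p = 0.58, tested among all probe sets). Another probe set, which the annotation assigns to both Krt17 and Krt14, read 4.79 and 4.46 on the MYCi arrays, 4.82, 4.47 and 4.68 on the Resc arrays and 4.63, 4.64 and 4.62 on the DMSO arrays. The Krt17 differences thus come from 1 probe set, and which transcripts the others capture was not tested.

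**Figure D2:**
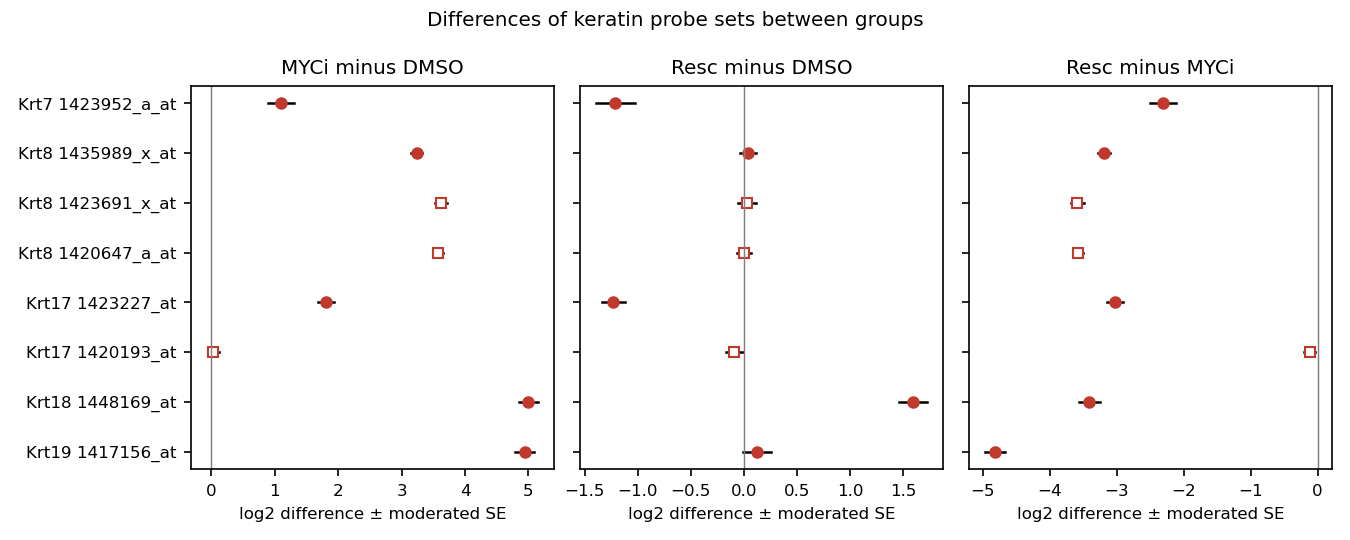
Log2 difference (horizontal axis) of each keratin probe set for MYCi minus DMSO, Resc minus DMSO and Resc minus MYCi; filled circles are the brightest probe set of a gene, open squares its other probe sets, and bars ± moderated standard error. In the middle panel Krt18 stands at 1.59, Krt7 at -1.21 and Krt17 (1423227_at) at -1.23, with Krt8 and Krt19 close to 0.

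Since a type I chain needs a type II partner, each type I keratin was also set against each type II keratin within the same array, relative to the DMSO mean of that difference. Against Krt8, Krt18 stood at 1.72 and 1.80 on the MYCi arrays, 1.31, 1.63 and 1.69 on the Resc arrays and -0.30, 0.12 and 0.19 on the DMSO arrays. Relative to its DMSO mean, the difference was positive on all 5 MYCi and Resc arrays, and these values say nothing of which gene was the more abundant. Krt19 over Krt8 stood at 1.3 and 2.09 in MYCi, 0.09, 0.10 and 0.05 in Resc and 0.09, -0.14 and 0.05 in DMSO. Krt17 over Krt8 was negative in both treated groups, at -1.51 and -1.35 in MYCi and -1.28, -1.56 and -0.97 in Resc, against -0.09 to 0.05 in DMSO. Krt17 over Krt7 differed between Resc and DMSO by -0.02, less than the SD of 0.45 over the Resc arrays. Of the 6 pairs compared between Resc and DMSO, 4 reached a two-sided exact permutation p of 0.1, the smallest that 3 against 3 arrays allow (0.15 after Benjamini-Hochberg adjustment), namely Krt18 over Krt8 (1.54), Krt17 over Krt8 (-1.27), Krt18 over Krt7 (2.79) and Krt19 over Krt7 (1.33). This test cannot go below 0.1 with 3 against 3 arrays, and the pairs share their genes and the choice of the 5 keratins.

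Krt8 and Krt18 are next to each other on chromosome 15 in RefSeq (GRCm38.p6, protein-coding genes). Krt78, on the far side of Krt8, did not pass the test in any comparison (MYCi minus DMSO -0.15 ± 0.086, limma adjusted p = 0.195). Eif4b, a translation initiation factor gene on the far side of Krt18, fell with the inhibitor (-0.31 ± 0.061; limma adjusted p = 0.0026) and did not pass between Resc and DMSO (0.07 ± 0.055). Krt80, beside Krt7 on the same chromosome, differed by -0.01 ± 0.095 between MYCi and DMSO (limma adjusted p = 0.927). On chromosome 11, Krt17 lies between Krt16 and Krt42, and Krt15 lies beside Krt19. Krt42 was among the 2 other keratins that fell in released cells against DMSO, as did Krt17, and Krt15 did not pass in any comparison (Resc minus DMSO -0.25 ± 0.078, limma adjusted p = 0.0816).

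Promoters of Krt7, Krt8 and Krt18, from RefSeq, are shown (those of Krt17 and Krt19 were not used here) because they belong to genes that were all higher with the inhibitor but parted after release. Each is 300 bases, 250 before and 50 after the annotated start, written along the gene's strand. They lie at chr15:101412153-101412452 (plus strand, Krt7), chr15:102004293-102004592 (minus strand, Krt8) and chr15:102027966-102028265 (plus strand, Krt18) of GRCm38.p6. Capitals mark matches to the motifs listed after them.
Krt7: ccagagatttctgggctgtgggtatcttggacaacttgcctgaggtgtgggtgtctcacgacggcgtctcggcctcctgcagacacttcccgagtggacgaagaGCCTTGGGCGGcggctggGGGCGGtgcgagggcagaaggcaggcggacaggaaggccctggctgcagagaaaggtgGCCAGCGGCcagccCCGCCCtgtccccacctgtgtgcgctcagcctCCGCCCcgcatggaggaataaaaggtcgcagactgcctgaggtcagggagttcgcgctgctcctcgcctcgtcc
Krt8: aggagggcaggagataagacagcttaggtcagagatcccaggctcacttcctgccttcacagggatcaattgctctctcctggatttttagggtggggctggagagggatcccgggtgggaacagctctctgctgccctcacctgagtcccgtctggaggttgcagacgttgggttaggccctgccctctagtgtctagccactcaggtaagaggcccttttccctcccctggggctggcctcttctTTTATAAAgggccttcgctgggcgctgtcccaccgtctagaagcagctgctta
Krt18: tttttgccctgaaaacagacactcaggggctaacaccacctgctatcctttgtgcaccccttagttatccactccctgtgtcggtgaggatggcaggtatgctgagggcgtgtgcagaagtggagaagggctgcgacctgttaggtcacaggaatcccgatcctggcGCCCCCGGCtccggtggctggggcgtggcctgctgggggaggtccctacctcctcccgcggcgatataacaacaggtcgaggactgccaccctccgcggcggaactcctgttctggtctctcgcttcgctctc
Both strands were searched. The GC box GGGCGG, which 35.7% of 32851 promoters hold, was found in 4 places of the Krt7 promoter. The AP-2 motif GCCNNNGGC, which 16.6% of promoters hold, was found in 2 places of Krt7, of which 1 overlaps a GC box, and in 1 place of Krt18. The TATA box TATAAA, found in 13.6% of promoters, was found in Krt8 on both strands, in overlapping letters at the annotated start. The AP-1 motif TGANTCA occurs in 7.81% of promoters and not in these 3 windows. The E-box CACGTG, to which MYC binds together with MAX, occurs in 7.15% and not in these windows. The same holds for the antioxidant response element TGACNNNGC, with a share of 12.4%. It holds too for the Grainyhead motif AACCNGTT, with a share of 2.09%. A match is a string of letters and not a measured site.

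Few other members of the keratin family passed the test. Of 43 other keratin genes measured, 1 rose and 3 fell with the inhibitor (41.5% of all genes were called, 19.2% upward and 22.3% downward), with a median difference of -0.08 against -0.0583 over all genes. In released cells against DMSO, 0 rose (2 at an unadjusted limma p under 0.05) and 2 fell, near the 4.66% and 4.01% of all genes, with a median of -0.02 (1 fell without MYCi replicate 1 or 2, Resc replicate 2 or 3, or DMSO replicate 1 or 2), and against MYCi 3 rose and 2 fell, where 41.9% of all genes were called, 22.7% upward and 19.2% downward. Of these 43 genes, 6 never exceeded the highest bacterial control value, so for them a change in RNA could go unseen. The 43 were dim as a set, with a mean level of 3.97 to 3.98 in MYCi, 4.00 to 4.03 in Resc and 4.02 to 4.10 in DMSO. Array medians over all genes were 5.633 to 5.713. A change could thus be missed in other dim keratins too, and the few calls may reflect low signal. The 21 type II genes ranged from -0.65 to 0.04 between MYCi and DMSO, and the 22 type I genes from -0.28 to 0.36. The contrast with the 5 keratins in this comparison is fixed by their choice and is not read. With median centring 0 of the 43 rose and 7 fell with the inhibitor, and the 3 falls numbered 1 without MYCi replicate 1, 0 without MYCi replicate 2 and 5 without DMSO replicate 1.

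Krt16, the usual type I companion of Krt17 in stressed epidermis, read 4.29 and 4.38 on the MYCi arrays, 3.49, 3.76 and 3.86 on the Resc arrays and 4.11, 3.79 and 4.02 on the DMSO arrays. Its rise with the inhibitor was small (0.36 ± 0.12, limma adjusted p = 0.0382) and was lost with median centring and without DMSO replicate 2 or 3. Fits without a MYCi replicate keep a single array in that group and are not counted here. Nor is the fit without dim genes, which can leave a gene this dim untested. Between Resc and MYCi Krt16 differed by -0.63 ± 0.12 (limma adjusted p = 0.00203), and between Resc and DMSO by -0.27 ± 0.11 (limma adjusted p = 0.173). Krt6a, the type II stress keratin, differed by -0.05 ± 0.069 between MYCi and DMSO (limma adjusted p = 0.592), and Krt20, a simple keratin of the gut and bladder, by 0.19 ± 0.15 (limma adjusted p = 0.334); both were named after their values were seen. Krt42, a type I keratin gene, stood at 8.73 and 8.60 on the MYCi arrays, 7.65, 7.93 and 7.89 on the Resc arrays and 8.67, 8.76 and 8.80 on the DMSO arrays. It fell in released cells against DMSO (-0.92 ± 0.083; limma adjusted p = 0.000186) without a difference past the test under the inhibitor (-0.08 ± 0.093). Krt76, a type II keratin of the oral epithelium, fell with the inhibitor (-0.65 ± 0.15; limma adjusted p = 0.00534). It was dim, at 3.40 and 2.90 on the MYCi arrays, 3.84, 3.45 and 3.64 on the Resc arrays and 3.83, 3.83 and 3.74 on the DMSO arrays. The lower MYCi value lay within the range of the bacterial controls, and the 2 MYCi arrays differed from each other.

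**Figure D3:**
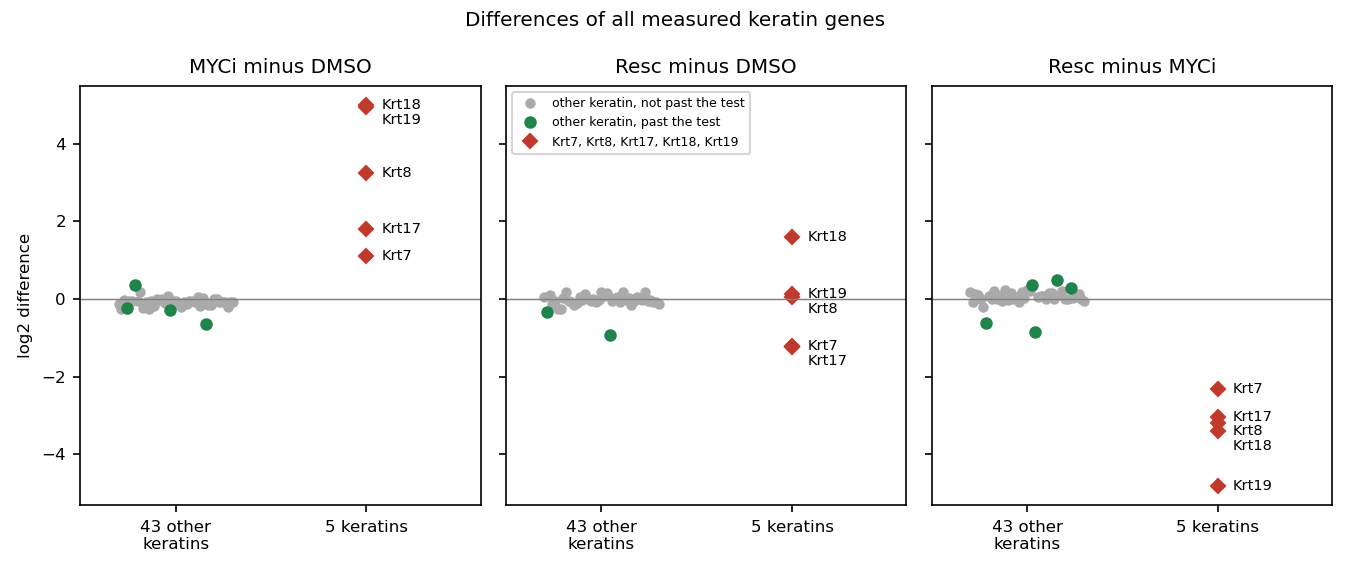
Log2 difference (vertical axis) of every measured keratin gene for MYCi minus DMSO, Resc minus DMSO and Resc minus MYCi; grey and green points are the 43 other keratins, green where limma's adjusted p was under 0.05, and diamonds the 5 keratins described, which carry no test colour. The other keratins stay between -0.92 and 0.49 in all 3 panels.

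Among the remaining intermediate filament genes the direction was mixed. Of 15 measured, 2 rose and 6 fell with the inhibitor (19.2% and 22.3% of all genes). In released cells against DMSO 3 rose and 0 fell (2 at an unadjusted limma p under 0.05), where 4.66% and 4.01% of all genes did, and 1 fell without DMSO replicate 1. Vim, which encodes the vimentin filaments of mesenchymal cells, fell with the inhibitor (-1.04 ± 0.085; limma adjusted p = 7.35e-06) and was not past the test in released cells (-0.22 ± 0.076). The lamin genes Lmnb1 (-0.92 ± 0.063) and Lmnb2 (-0.96 ± 0.096), which line the nuclear envelope, fell too. The neurofilament gene Nefm rose with the inhibitor (1.11 ± 0.086) and stayed up in released cells (0.93 ± 0.077; limma adjusted p = 0.000116), as Krt18 did, and Nefl rose in both comparisons (0.54 ± 0.069 and 0.64 ± 0.061). Nefh fell with the inhibitor (-0.67 ± 0.087) and rose in released cells against DMSO (1.18 ± 0.078).

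The genes that tie keratin filaments to junctions were counted in the same way. Of 20 measured plakin, desmosome and hemidesmosome genes, 10 rose and 2 fell against DMSO (background 19.2% and 22.3%; median 0.18). With the dimmest probe set of each gene 3 of 20 rose, so the count of rises depends on the probe set. Plec, the plectin gene that links keratin to other filaments, rose 3.06-fold (1.61 ± 0.064; limma adjusted p = 9.6e-08). Dsc2 (1.63 ± 0.14) and Dsg2 (0.80 ± 0.072), the desmosomal cadherins of simple epithelia, rose, as did Dst (0.93 ± 0.080) and Macf1 (0.85 ± 0.080), which bridge filaments and microtubules. Pkp4 (-0.20 ± 0.062) and Eppk1 (-0.24 ± 0.083), the epiplakin gene, fell, but 0 falls were left without MYCi replicate 1, without MYCi replicate 2 or with the replicate block, and 1 without Resc replicate 2, DMSO replicate 1 or DMSO replicate 3. In released cells against DMSO, 1 of the 20 rose and 4 fell (4.66% and 4.01% of all genes), and the 1 rise was lost without any one of the Resc arrays or DMSO replicate 1 or 2.

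Dsp, the desmoplakin gene whose product anchors keratin at desmosomes, showed the course of Krt7. It read 7.85 and 7.80 on the MYCi arrays, 5.75, 6.21 and 6.10 on the Resc arrays and 6.84, 6.92 and 7.11 on the DMSO arrays. The released arrays were lowest, with a rise under the inhibitor (0.87 ± 0.13; limma adjusted p = 4e-04) and a fall in released cells against DMSO (-0.93 ± 0.12; limma adjusted p = 0.00119). Eppk1 fell in released cells as well (-0.70 ± 0.074; limma adjusted p = 0.000469).

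Of 12 genes for proteins that bind or arrange keratins, 3 rose and 2 fell with the inhibitor, near the 19.2% and 22.3% of all genes. Fam83h, which recruits casein kinase to keratin filaments, rose 4.89-fold (2.29 ± 0.14; limma adjusted p = 1.08e-06) and differed by -0.01 ± 0.12 between Resc and DMSO, the course of Krt8 and Krt19. Tchp, the trichoplein gene (0.27 ± 0.061), and Sfn, which encodes 14-3-3 sigma (0.23 ± 0.073), rose slightly. Dnajb6, a co-chaperone of keratin 18 (-0.36 ± 0.058), and Pnn (-0.26 ± 0.063), the pinin gene, fell. In released cells against DMSO, Sfn fell (-0.52 ± 0.065; limma adjusted p = 0.00122) and Pnn was called higher (0.23 ± 0.056; limma adjusted p = 0.033), each the 1 call of its direction (4.66% of all genes were called higher and 4.01% lower). The rise was lost when any one of the 8 arrays was left out.

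Several simple epithelium genes other than keratins were, like Krt7 and Krt17, above DMSO with the inhibitor and below it after release. Of 20 measured, 9 rose and 1 fell with the inhibitor (19.2% and 22.3% of all genes), and in released cells against DMSO 3 rose and 12 fell, where the background was 4.66% and 4.01% (median -0.41 against 0.00175 over all genes). The tight junction gene Cldn7 stood at 9.05 and 8.96 on the MYCi arrays, 6.31, 6.59 and 6.42 on the Resc arrays and 7.43, 7.73 and 7.60 on the DMSO arrays. It rose with the inhibitor (1.41 ± 0.10; limma adjusted p = 3.95e-06) and fell below DMSO after release (-1.15 ± 0.094; limma adjusted p = 0.00011). Prss8, the membrane protease prostasin, rose 4.31-fold (2.11 ± 0.078) and then lay below DMSO (-0.79 ± 0.070; limma adjusted p = 0.000172). Cldn4 (1.61 ± 0.073, then -0.44 ± 0.066) and St14, the matriptase gene (0.96 ± 0.073, then -0.48 ± 0.065), passed in both directions too, as did Esrp1 and Spint1. The falls of Cdh1, Epcam, Tjp3, Rab25, Ap1m2 and Crb3 in released cells came without a call with the inhibitor. Epcam, for example, differed from DMSO by -0.10 ± 0.064 and then -0.52 ± 0.057. Esrp1, Spint1 and the genes without a first call were named after their values were seen. Spint2, a protease inhibitor gene, rose in both comparisons (0.88 ± 0.070 and 0.42 ± 0.062), and Ocln, the occludin gene, rose in released cells against DMSO (0.39 ± 0.070). Cldn3 fell with the inhibitor (-0.29 ± 0.083), and 0 falls were left without MYCi replicate 2, without DMSO replicate 3 or with the replicate block. Over the alternatives the 12 falls ranged from 9 to 13.

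**Figure D4:**
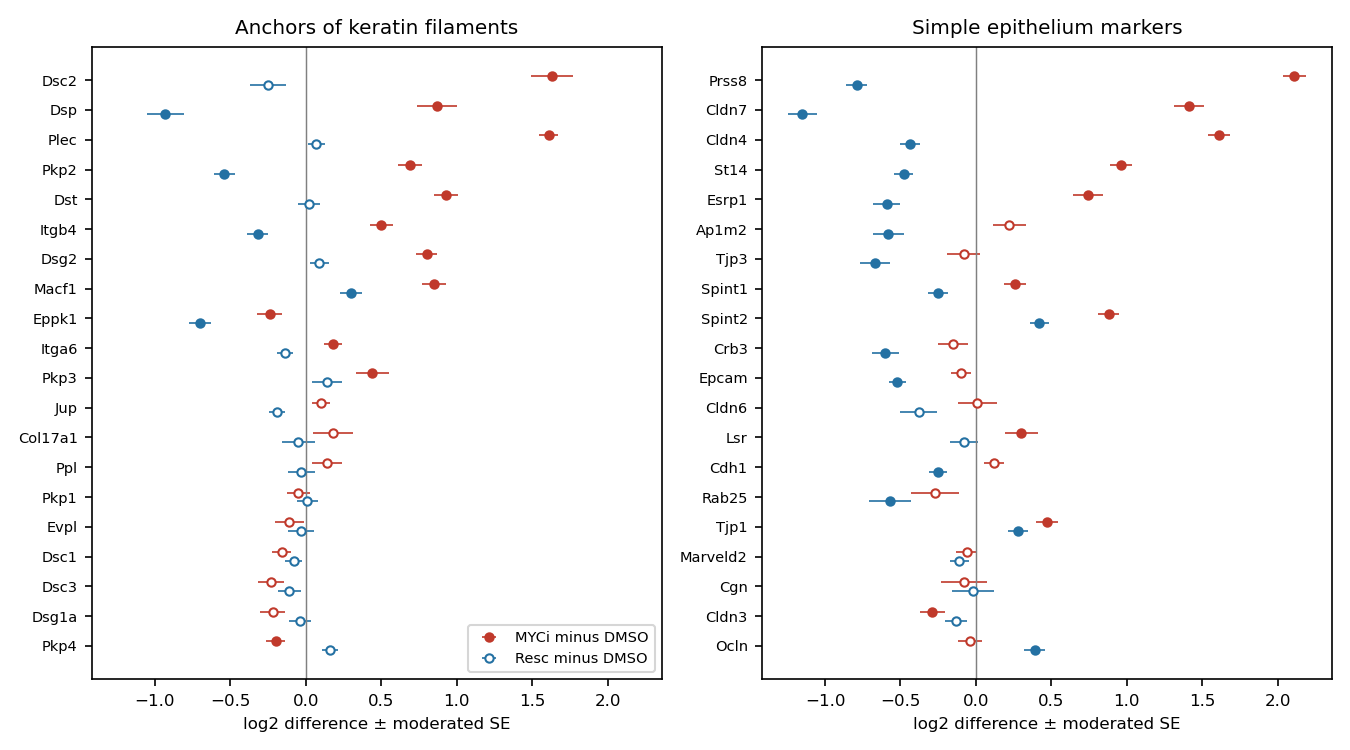
Log2 difference ± moderated standard error (horizontal axis) of 20 genes that anchor keratin filaments (left) and 20 simple epithelium markers (right), for MYCi minus DMSO (red) and Resc minus DMSO (blue); filled points passed limma's adjusted p of 0.05. Both comparisons use the same DMSO arrays. Dsp, Cldn7 and Prss8 have a filled red point right of 0 and a filled blue point left of it.

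Of 30 measured transcription factor genes known to act on keratin genes, 17 rose and 2 fell with the inhibitor, against 19.2% and 22.3% of all genes (11 and 4 with the dimmest probe set of each gene). In released cells against DMSO 3 rose and 4 fell, where 4.66% and 4.01% of all genes did, and 1 rise was left without Resc replicate 1 or 3 or DMSO replicate 1 or 2. Jun (3.83 ± 0.18) and Fos (1.91 ± 0.077), partners in AP-1, and Cebpb (3.84 ± 0.10) were the largest of the named rises. Jun differed by -0.52 ± 0.16, Fos by 0.00 ± 0.069 and Cebpb by 0.29 ± 0.093 between Resc and DMSO, without passing. Grhl2, a Grainyhead factor of epithelia, rose with the inhibitor (1.46 ± 0.069; limma adjusted p = 2.48e-07) and lay 0.25 ± 0.061 above DMSO in released cells (limma adjusted p = 0.0345). Ets2, known to act on the human KRT18 gene, passed in both comparisons, at 0.39 ± 0.069 and 0.28 ± 0.061 (limma adjusted p = 0.00123 and 0.0212). Tfap2c, the AP-2 gamma gene, did not pass with the inhibitor (0.20 ± 0.10) and fell in released cells (-1.08 ± 0.089; limma adjusted p = 0.000116), and Grhl3 fell there as well (-0.45 ± 0.067), whereas Grhl1 rose there (0.63 ± 0.12). Ovol2 (-0.71 ± 0.16) and Junb (-0.59 ± 0.12) fell with the inhibitor.

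Markers of other cell types were read beside the keratins. The ESC markers kept high values on all arrays, with a mean level over 15 genes of 10.54 to 10.55 in MYCi, 10.64 to 10.66 in Resc and 10.67 to 10.70 in DMSO. Pou5f1 differed by -0.04 ± 0.072, Sox2 by 0.12 ± 0.073 and Nanog by -0.10 ± 0.058 between MYCi and DMSO, none past the test. Of the 15, 4 rose with the inhibitor (Zfp42 0.69, Klf4 0.46, Tfcp2l1 0.33 and Esrrb 0.20) and 6 fell (Utf1 -1.79, Dppa3 -1.08, Sall4 -0.28, Dppa5a -0.26, Fgf4 -0.24 and Prdm14 -0.21), where 19.2% and 22.3% of all genes did, while Klf2 (0.18) and Tbx3 (-0.02) did not pass. Without MYCi replicate 2 the 6 falls numbered 3. Of 17 trophectoderm markers other than keratins, 7 rose and 2 fell with the inhibitor (19.2% and 22.3% of all genes), with a mean level of 5.72 to 5.76 in MYCi, 5.46 to 5.51 in Resc and 5.46 to 5.54 in DMSO. With the dimmest probe set of each gene 5 rose and 4 fell. Eomes (2.23 ± 0.070), Id2 (1.78 ± 0.082) and Gata3 (1.28 ± 0.12) rose, as did Plet1 (0.71 ± 0.096), whereas Ly6e (-2.30 ± 0.078) and Bmp4 (-0.40 ± 0.097) fell. Gata3 was dim, at 2.53, 2.65 and 2.39 on the DMSO arrays, within the range of the bacterial controls, and 3.58 and 4.03 on the MYCi arrays. The defining factor Cdx2 differed by -0.20 (limma adjusted p = 0.271), Elf5, read between 2.75 and 3.2 on all arrays, by 0.08 (adjusted p = 0.578), and Hand1 by -0.15 (adjusted p = 0.215), and Tpbpa never exceeded the bacterial controls; these defining genes were named after their values were seen. The part of trophectoderm-like cells in the keratin levels was not tested, and in bulk RNA more cells of a type and more RNA per cell cannot be told apart.

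Stratified epithelium markers showed 4 rises and 2 falls among 17 with the inhibitor, near the 19.2% and 22.3% of all genes. With median centring 2 rose and 4 fell. Their mean level was 4.55 to 4.59 in MYCi, 4.43 to 4.50 in Resc and 4.59 to 4.65 in DMSO. The 4 rises numbered 2 without MYCi replicate 1 and 1 without MYCi replicate 2, and the 2 falls numbered 1 without MYCi replicate 1, Resc replicate 1 or 2, or DMSO replicate 1 or 2. In released cells against DMSO 0 rose, also at an unadjusted limma p under 0.05, and 5 fell, where 4.66% and 4.01% of all genes did. The 5 falls numbered 2 without Resc replicate 2 or 3 or DMSO replicate 2 and 3 without DMSO replicate 1. Trp63, the master factor of stratified epithelia, stayed between 3.06 and 3.28 on all arrays. Perp, Sfn and Itgb4 rose with the inhibitor (0.37, 0.23 and 0.50) and fell below DMSO after release (-0.34, -0.52 and -0.32), and Tgm1 (-1.01 and -0.71) fell in both comparisons. Of 18 extraembryonic endoderm markers 3 rose and 4 fell with the inhibitor, near the 19.2% and 22.3% of all genes, with a mean level of 5.15 to 5.2 in MYCi, 5.2 to 5.28 in Resc and 5.22 to 5.24 in DMSO. Col4a2 (0.80), Sparc (0.36) and Apoe (0.19) rose, and Lamb1 (-1.02), Sox7 (-0.72), Foxa2 (-0.38) and Ttr (-0.23) fell. Of 14 fibroblast and feeder markers 0 rose by limma, also at an unadjusted p under 0.05, and 2 fell (Thy1 -0.40 and Lox -0.23; 1 without MYCi replicate 1 or 2 or DMSO replicate 2), where 19.2% and 22.3% of all genes were called, with a mean level of 3.42 to 3.52 in MYCi, 3.56 to 3.6 in Resc and 3.54 to 3.59 in DMSO, and Col3a1 and Fap never exceeded the bacterial controls. The part of such cells was not tested.

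The genes most like each keratin were found by the root mean square difference over the 8 arrays, after each gene's DMSO mean was subtracted. This distance grows with the size of a gene's differences from DMSO, so that few genes can lie near one with a large rise. With the inhibitor 0.115% of all genes stood at least 8-fold above DMSO. Krt8 was closest to Msln, which encodes mesothelin (0.09), then to Sstr5 (0.17) and Ppm1h (0.18). Krt19 was closest to Ptgs2, the inducible prostaglandin synthase gene (0.26), followed by Cryab (0.42) and Anxa3 (0.54). The nearest to Krt18, rank 2 of 18193 genes in its rise, were S100a6 (0.61), Cryab (0.82) and App (0.94). In released cells these 3 genes lay 0.87, 0.44 and 0.54 above DMSO, compared with 1.59 for Krt18.

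Krt7 was closest to Cldn7 (0.23), Gstm5 (0.23) and Dsp (0.25). Krt17 was closest to Id2 (0.18), which holds back helix-loop-helix factors, Ahnak2 (0.24) and Cldn7 (0.26). Id2 read 8.47 and 8.39 on the MYCi arrays, 5.73, 5.57 and 5.52 on the Resc arrays and 6.63, 6.74 and 6.58 on the DMSO arrays. Like Krt17, it stood highest with the inhibitor and lowest after release, a likeness that follows from its choice as the nearest gene. Among the keratins themselves, Krt7 and Krt17 were closest to each other (0.42), then Krt8 and Krt19 (0.88) and Krt18 and Krt19 (0.94). Krt7 and Krt18 were farthest apart (2.59), a distance that includes the unlike size of their rises with the inhibitor (1.10 and 5.0).

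**Figure D5:**
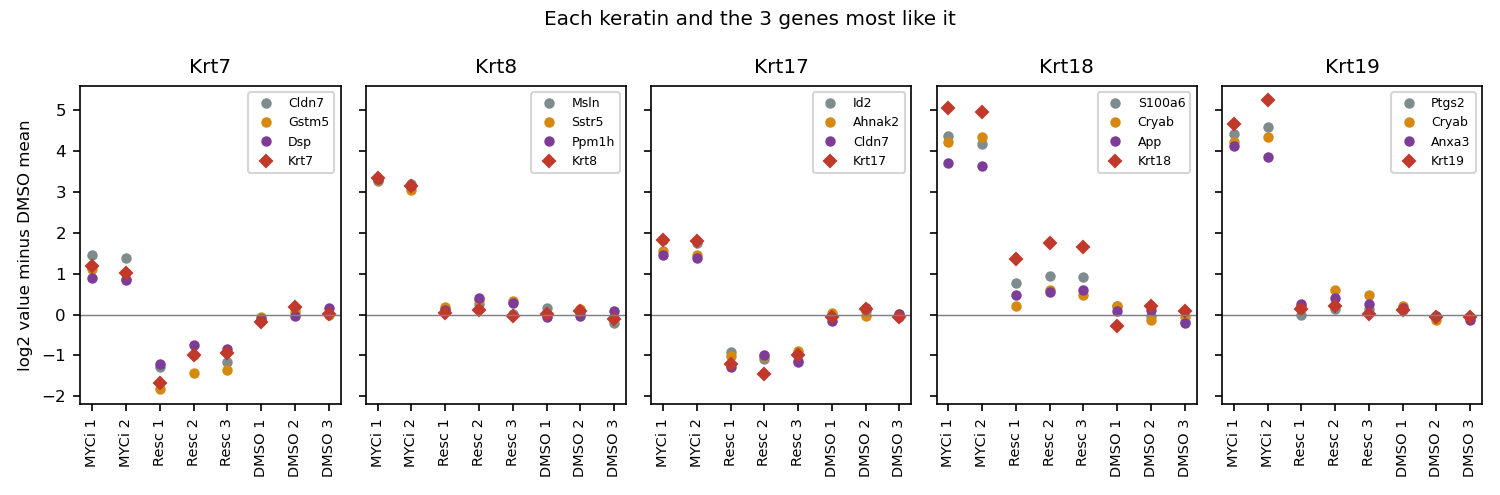
Log2 value minus the gene's DMSO mean (vertical axis) on each of the 8 arrays for the 5 keratins (red diamonds) and the 3 genes most like each (circles). Krt7 and Krt17 and their nearest genes lie above 0 on the MYCi arrays and below it on the Resc arrays, whereas Krt18 lies above the genes nearest to it on every Resc array. The nearest genes were picked by these same values.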

How the data were processed

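RNA of 8 samples was measured on Affymetrix GeneChip arrays, 1 array each. The deposited values are log2 expression values of 45101 probe sets; RMA with oligo 1.32.0 and limma 3.2.15 stands in the submitters' processing notes, and the log2 scale was read from the values (1.69 to 13.76). RMA makes values relative within an array, and a shift of RNA per cell common to most genes cannot be seen. Other upstream steps are not given in the sources used here. Platform annotation named the genes: 34945 probe sets had 1 symbol and 932 several, and 64 were controls. Gene numbers of 34741 matched RefSeq (GRCm38.p6), which changed 0 symbols. The probe set with the highest mean stood for a gene (18193 genes), and every probe set of the 5 keratins is given.

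limma 3.58.1 in R 4.3.3 was fitted with 1 mean per group over all 8 arrays (5 residual degrees of freedom; the number of arrays limits precision). Two-sided p-values were adjusted by Benjamini-Hochberg. The median standard error was 0.0828 for MYCi against DMSO and 0.0741 for Resc against DMSO. The fit was tested on simulated data in which 200 of 18193 genes were shifted per comparison. It recovered 80% of the genes shifted by 0.5 (log2) for MYCi against DMSO, 90% for Resc against DMSO and 86% for Resc against MYCi. Of its calls, 4.04%, 2.01% and 4.46% were false. On the arrays many more genes were called (41.5% for MYCi against DMSO), and these shares depend on how many genes change, so they need not hold there.

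Keratins, gene lists (11) and tests were chosen with earlier results of these data known. Named genes were the 5 keratins, other keratins called with a difference of at least 0.5, per list up to 4 rises and 4 falls with the smallest p in MYCi against DMSO and up to 2 each in Resc against DMSO, ESC markers, and the 3 genes most like each keratin. Chromosome neighbours were taken by position, and other genes named at the level of the bacterial controls or as a cell type's defining factor were picked after their values were seen. Pearson correlations across genes between arrays of 1 group were at least 0.9977. Differences between the 3′ and 5′ Gapdh control probe sets were -0.148 and -0.216 on the MYCi arrays, -0.133 to -0.117 on the Resc arrays and -0.130 to -0.108 on the DMSO arrays. Python 3.11.15 with numpy 2.4.6, pandas 2.3.3, scipy 1.17.1 and matplotlib 3.10.9 was used for ratios, sequences and figures.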

Additional observations from a re-analysis of the deposited data

How the results depend on the processing

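A total of 16 alternatives was run: the mean of a gene's probe sets, every probe set (a gene then standing by its dimmest), median centring, a second quantile normalization, robust fitting with a variance trend, removal of genes under level percentile 30, only the 2 groups compared, the replicate block and 8 fits that each left out 1 array. Of the 5 keratins, 3 were called between Resc and DMSO under each except every probe set, where 2 were called and Krt17 was represented by 1420193_at (-0.09; limma adjusted p = 0.58). The Krt18 difference ran from 1.45 to 1.7 and that of Krt7 from -1.34 to -0.97. Krt8 and Krt19 were not called under any of the 16. The median of the 5 keratins was 3.48 with the mean of probe sets and 3.58 with every probe set for MYCi against DMSO, and -3.41 under both for Resc against MYCi; the 3 probe sets of Krt8 account for this. Over all genes, the calls between Resc and DMSO numbered 2641 with a variance trend and robust fitting, against 1576, and 1000 to 1344 when 1 array was left out, falling to 1008 without Resc replicate 1 and 1000 without Resc replicate 2. Of 1056 recomputed list counts, 892 stayed within 1.5 times and 164 did not, most of these counts being small. Same-numbered arrays did not deviate together (correlations of deviations from -0.0562 to 0.0141). This cannot tell whether they shared a culture or batch, which the labels do not say. With the replicate block 3 keratins were called between Resc and DMSO, and 1180 genes in all. Krt19 and Krt17 in the dimmer groups lie close to the bacterial controls, which limits their folds.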
